A study of Mus musculus with 20 samples.

Results

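Mouse embryonic fibroblasts without PML (KO) had more RNA than wild-type fibroblasts (WT) for a small set of genes in both of the RNA comparisons made. Described here are 10 such genes, Inhba, Il11, Ptgs2, Has2, Gjb2, Pcdh1, Tspan2, Parm1, Nrn1 and Stmn2, out of 22593 genes named once in each RNA table. They were chosen by their RNA values, each being at least 2-fold higher in KO in both table pairs on the scale log2(FPKM + 1). FPKM is the number of sequenced fragments of a gene divided by its transcript length and by the mapped fragments of the library. The same rule holds for 27 genes in all, and the 10 were taken from these with their values known. The RNA differences below are therefore what chose the genes and are given as a description without a test. Adding 1 before the logarithm understates the change of genes with low FPKM.

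The cells were isolated from Pml-null and wild-type C57BL/6 mice, were used at passages 10 to 15 and were grown to confluency. KO and WT cells each gave 6 chromatin immunoprecipitation (ChIP) libraries, 1 per target, for PML, H3, Flag-tagged H3.3, HA-tagged H3.3, H3K9me3 and H3K27me3. RNA came from 3 numbered replicates and 1 unnumbered sample per genotype, and the authors combined the 3 numbered ones in 1 table for each genotype. The 4 tables are called KO numbered, WT numbered, KO unnumbered and WT unnumbered. The tagged histones were introduced by transfection, whereas RNA was taken from untransfected cells, so RNA and H3.3 cover come from differently treated cells. No source used here tells whether the numbered replicates were separate cultures or embryos. With 1 value per genotype and pair, and 1 library per target and genotype, no comparison below has a replicate error and none carries a p-value.

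PML is the scaffold protein of PML nuclear bodies, which concentrate many nuclear proteins, among them the Daxx and Atrx chaperones that deposit the histone variant H3.3. H3K9me3 marks constitutive heterochromatin, and H3K27me3 is set by Polycomb complexes on silent developmental genes. The 10 genes belong to no single pathway. Several encode products that fibroblasts secrete or expose when activated, such as a cytokine, an activin subunit and the enzymes of prostaglandin and hyaluronan synthesis, and others are better known from epithelium or neurons.

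Several features of the whole tables bear on every value below. Pml itself had 10.2 FPKM in KO numbered and 4.22 in KO unnumbered, against 15.0 in WT numbered and 7.62 in WT unnumbered, and as no source here tells which exons the null allele lacks, these levels do not check the labels. Summed FPKM differed between the numbered tables, at 417175 in KO and 964437 in WT, and was 508827 in KO and 524662 in WT in the unnumbered tables. Scaling every table to the same sum (TPM) moved the median difference of all measured genes to 1.15 for the numbered tables and 0.05 for the unnumbered ones, against 0.06 and 0.01 as deposited. Xist had 0.0517 FPKM in KO and 19.5 in WT in the numbered tables, while the Y-linked gene Ddx3y had 7.67 in KO and 0.0384 in WT, so the sex of the cells and the genotype cannot be told apart there. In the unnumbered tables Xist had 8.25 FPKM in KO and 5.89 in WT, and Ddx3y 11.4 in KO and 21.7 in WT. All 10 genes lie on autosomes.

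The fibroblast label was set against 13 fibroblast markers. Col1a1, Col1a2, Vim and Fn1 had at least 503.6 FPKM in every table, while Thy1 had 0.100 FPKM in KO numbered and 0.141 in WT numbered, against 120.3 in KO unnumbered and 209.8 in WT unnumbered. Thy1, a surface protein often used to mark fibroblasts, was thus near 0 in both numbered tables. It was not the only low marker there. Fap had 0.729 FPKM in KO numbered and 0.485 in WT numbered, and Lum 0.441 in KO numbered and 5.87 in WT numbered. The summed level of the list was 4763 FPKM in KO and 8735 in WT in the numbered tables, and 9366 in KO and 12050 in WT in the unnumbered tables. Summed FPKM of all genes was 417175 in KO numbered and 964437 in WT numbered, so the list's share of it was larger in KO. In the unnumbered tables, where the sums of all genes were close, its share was smaller in KO. In bulk RNA, fewer cells of a type and less RNA per cell cannot be told apart.

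**Figure D1:**
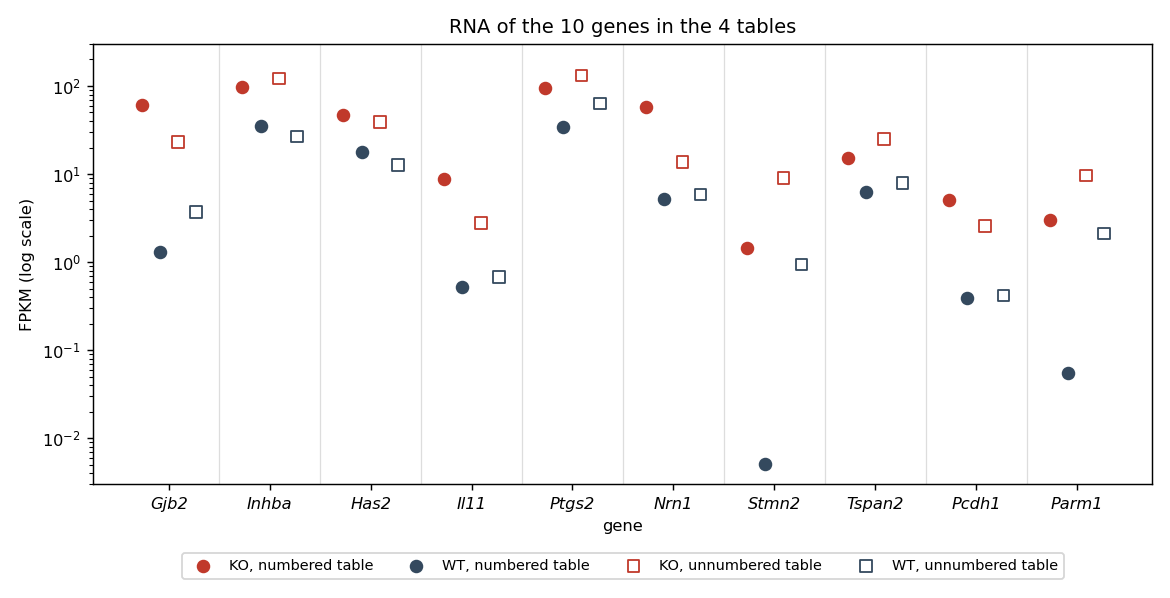
RNA of the 10 genes in FPKM on a log scale, 1 point per table, with KO in red and WT in dark blue, numbered tables as filled circles and unnumbered tables as open squares. For each gene both red points lie above both dark points; Stmn2 in WT numbered is the lowest point, at 0.00503 FPKM.

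For all 10 genes the lower of the KO values exceeded the higher of the WT values, on FPKM as deposited and on TPM. This order was found for 9.98% of the 10671 genes measured in both pairs, where measured means at least 1 FPKM in either genotype of a pair, and for 28.7% on TPM. At least 2-fold higher in KO were 6.50% of 11055 measured genes in the numbered pair, 1.74% of 11687 in the unnumbered pair and 0.253% of 10671 in both pairs, and 0.797% were at least 2-fold lower in both. The rule used these contrasts, so nothing is read from the 10 of 10. The median difference of the 10 genes, KO minus WT on log2(FPKM + 1), was 1.68 for the numbered and 1.55 for the unnumbered tables, beside medians of 0.06 and 0.01 over all measured genes. Their summed level was 391.4 FPKM in KO and 100.5 in WT in the numbered tables, and 378.1 in KO and 124.2 in WT in the unnumbered tables.

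Inhba encodes the beta A subunit that forms activin A, a secreted signal of the TGF-beta family, and it lies on chromosome 13 from 16004256 to 16031609 (mm10, 27354 bp). It had 96.8 FPKM in KO numbered and 121 in KO unnumbered, against 34.7 in WT numbered and 26.7 in WT unnumbered. The groups did not overlap, and the lower KO value was 2.79 times the higher WT value. On the log2 scale the differences were 1.45 for the numbered tables and 2.14 for the unnumbered ones. Inhba was among the most abundant of the 10, with a higher FPKM than 96.9% of genes in KO numbered and 97.4% in KO unnumbered, and than 89.3% in WT numbered and 87.6% in WT unnumbered. Between the tables of 1 genotype it moved little, by 0.32 in KO and -0.36 in WT from numbered to unnumbered on the log2 scale.

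Il11 encodes interleukin 11, a cytokine of the IL-6 family known in fibroblasts for its ties to fibrosis, and it lies on chromosome 7 from 4772373 to 4782907 (10535 bp). It had 8.86 FPKM in KO numbered and 2.79 in KO unnumbered, against 0.515 in WT numbered and 0.683 in WT unnumbered. Both WT tables were below the 1 FPKM minimum, so Il11 counted as measured through its KO tables alone. Pcdh1 and Stmn2 did so in both pairs as well and Parm1 in the numbered pair, so these genes could only pass by being higher in KO. The Il11 differences were 2.70 and 1.17. The KO tables differed more from each other, by -1.38 from numbered to unnumbered, than the WT tables did, by 0.15. The Il11 gene body overlaps that of Tmem190, which was at or below 0.261 FPKM in the 4 tables.

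The promoter sequences of both secreted factors are shown because their start sites are covered by called ChIP regions, described further on. They are the 250 bases before an annotated start, from RefSeq on GRCm38.p6, which mm10 corresponds to. Capitals mark matches of 8 short motifs searched on both strands of the 250 bases. Of 32851 RefSeq promoters, the TATA box letters TATAAA occur in 12.4%, the AP-1 letters TGANTCA in 6.75%, the cAMP response element TGACGTCA in 1.55% and the TEAD letters CATTCC in 12.6%. The STAT letters TTCNNNGAA occur in 7.02%, the CCAAT box in 33.8%, the GC box GGGCGG in 32.7% and the E-box CACGTG in 6.02%. A match describes letters only. The Inhba start lies inside the longest annotated gene body, at chr13:16011601-16011850 on the plus strand, and TATAAA runs from -91 to -86 counted back from the start. The Il11 sequence is that of its inner start, at chr7:4778142-4778391 on the minus strand, with TGAGTCA, a form of the AP-1 letters, from -98 to -92, a CCAAT box from -244 to -240 and 4 GC boxes, of which the 3 nearest the start overlap by their end bases.
Inhba: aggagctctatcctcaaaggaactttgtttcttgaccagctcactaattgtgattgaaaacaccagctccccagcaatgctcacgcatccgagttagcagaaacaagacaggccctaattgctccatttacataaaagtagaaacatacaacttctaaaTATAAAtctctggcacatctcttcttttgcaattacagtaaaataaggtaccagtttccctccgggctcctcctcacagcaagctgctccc
Il11: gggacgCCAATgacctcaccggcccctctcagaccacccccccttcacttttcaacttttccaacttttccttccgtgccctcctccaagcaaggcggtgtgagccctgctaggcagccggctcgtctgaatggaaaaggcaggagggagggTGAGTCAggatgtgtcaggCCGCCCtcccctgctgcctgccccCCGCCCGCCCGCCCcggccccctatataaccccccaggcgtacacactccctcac
The Inhba promoter had 43.2% G and C and this Il11 promoter 64.8%, beside a median of 52.4% over all promoters. The outer Il11 promoter, at chr7:4782858-4783107, held 1 GC box and none of the other letters.

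Ptgs2 encodes cyclooxygenase-2, the inducible enzyme that commits arachidonic acid to prostaglandin synthesis, and it lies on chromosome 1 from 150100031 to 150108234 (8204 bp). It had 94.5 FPKM in KO numbered and 132 in KO unnumbered, against 34.5 in WT numbered and 63.3 in WT unnumbered. The lowest KO value was 1.49 times the highest WT value, so the groups were apart but close. Of its log2 differences, 1.43 and 1.05, the second is the smallest difference of the 10 genes in either pair. Has2 encodes a hyaluronan synthase, a membrane enzyme that extrudes the matrix polymer hyaluronan, and it lies on chromosome 15 from 56665627 to 56694546 (28920 bp). It had 47.4 FPKM in KO numbered and 39.2 in KO unnumbered, against 17.6 in WT numbered and 12.6 in WT unnumbered. The groups did not overlap, with log2 differences of 1.38 and 1.57. The antisense gene Has2os overlaps Has2 and had 1.15 FPKM in KO numbered and 1.10 in KO unnumbered, against 0.433 in WT numbered and 0.430 in WT unnumbered. No source here tells whether counting used strand, so reads of Has2 and Has2os may not be told apart.

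Gjb2 encodes a connexin, a subunit of gap junction channels best known from skin, liver and the inner ear, and it lies on chromosome 14 from 57098602 to 57104702 (6101 bp). It had 60.8 FPKM in KO numbered and 23.1 in KO unnumbered, against 1.31 in WT numbered and 3.69 in WT unnumbered. The lowest KO value was 6.24 times the highest WT value, the widest gap among the 10, and the differences were 4.74 and 2.36. The shift between tables went opposite ways in the genotypes, with -1.36 in KO and 1.02 in WT from numbered to unnumbered. The promoters of Gjb2, at chr14:57104703-57104952 on the minus strand, and of Ptgs2, at chr1:150099781-150100030 on the plus strand, are shown because called regions of tagged H3.3 reach them.
Gjb2: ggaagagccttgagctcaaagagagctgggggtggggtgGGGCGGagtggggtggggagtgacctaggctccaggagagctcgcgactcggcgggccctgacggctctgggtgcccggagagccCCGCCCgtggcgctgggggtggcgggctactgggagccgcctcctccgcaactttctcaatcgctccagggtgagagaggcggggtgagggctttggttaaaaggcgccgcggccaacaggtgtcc
Ptgs2: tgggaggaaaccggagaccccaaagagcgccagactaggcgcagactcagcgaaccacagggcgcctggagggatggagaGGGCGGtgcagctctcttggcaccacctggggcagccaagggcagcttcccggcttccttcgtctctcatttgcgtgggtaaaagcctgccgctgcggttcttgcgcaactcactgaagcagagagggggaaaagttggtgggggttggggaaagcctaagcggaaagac
The Gjb2 promoter held GC boxes from -211 to -206 and from -126 to -121 and had 69.2% G and C. The Ptgs2 promoter held 1 GC box, from -170 to -165, and had 61.6% G and C.

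Pcdh1 encodes a protocadherin, an adhesion protein of the cadherin superfamily, and it lies on chromosome 18 from 38185914 to 38212048 (26135 bp). It had 5.14 FPKM in KO numbered and 2.59 in KO unnumbered, against 0.391 in WT numbered and 0.418 in WT unnumbered. Like Il11, it was below 1 FPKM in both WT tables, and its lowest KO value was 6.19 times its highest WT value. On the log2 scale it differed by 2.14 and 1.34. Tspan2 encodes a tetraspanin, a membrane organiser known from oligodendrocytes and smooth muscle, and it lies on chromosome 3 from 102734770 to 102772310 (37541 bp). It had 15.3 FPKM in KO numbered and 24.9 in KO unnumbered, against 6.21 in WT numbered and 7.91 in WT unnumbered. Its differences were 1.18 and 1.54, and the first is the smallest of the 10 in the numbered pair. Parm1 encodes a mucin-like membrane glycoprotein first described in prostate, and it lies on chromosome 5 from 91517700 to 91624011 (106312 bp). It had 2.97 FPKM in KO numbered and 9.59 in KO unnumbered, against 0.0551 in WT numbered and 2.12 in WT unnumbered. Its groups were the closest of the 10 on this scale, with a lowest KO value 1.40 times the highest WT value. Both genotypes were higher in the unnumbered tables, by 1.42 in KO and 1.56 in WT on the log2 scale. Its log2 differences were nonetheless alike, at 1.91 and 1.76. The promoters of Tspan2, at 2 starts, and of Parm1 held none of the 8 sets of letters.

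Nrn1 encodes neuritin, a membrane-anchored protein that promotes neurite growth, and it lies on chromosome 13 from 36725622 to 36734477 (8856 bp). It had 58.0 FPKM in KO numbered and 13.7 in KO unnumbered, against 5.15 in WT numbered and 5.86 in WT unnumbered. The WT tables were close to each other, with a shift of 0.16 from numbered to unnumbered, whereas the KO tables shifted by -2.00. KO minus WT was 3.26 and 1.10. Stmn2 encodes a stathmin that binds tubulin and regulates microtubules in growing axons, and it lies on chromosome 3 from 8509527 to 8561604 (52078 bp). It had 1.44 FPKM in KO numbered and 9.07 in KO unnumbered, against 0.00503 in WT numbered and 0.935 in WT unnumbered. Its log2 differences were 1.28 and 2.38. Stmn2 was the lowest of the 10 in KO numbered, and its ratio there rests on a WT value near 0, so the difference on log2(FPKM + 1) is the measure used. Relative to the median of all measured genes, Stmn2 in the numbered pair was 0.998 higher on TPM and 0.835 higher after scaling without ribosomal protein genes, both under 2-fold, and the other 9 genes stayed at least 2-fold higher on both scales. Taking off the median largely removes such a scaling, and the genes were chosen past 2-fold, so little is read from the 9.

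**Figure D2:**
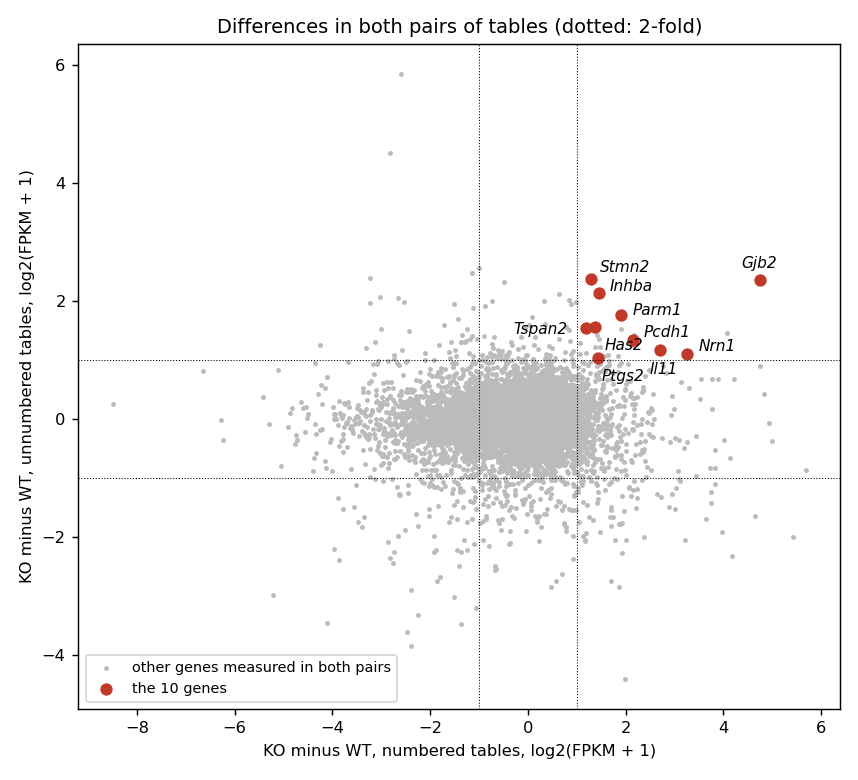
KO minus WT on log2(FPKM + 1) in the numbered tables (horizontal axis) and in the unnumbered tables (vertical axis) for the genes measured in both pairs, with the 10 genes in red. Dotted lines mark 2-fold; the 10 red points lie beyond both lines by the rule that chose them, with Gjb2 at 4.74 and 2.36 farthest out.

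The other 17 genes that meet the rule were ranked by the smaller of their pair of differences. Among the 10 highest were A730098P11Rik (1.54), Krt19 (1.44), Kif5c (1.41), Nipal1 (1.36), Ppbp (1.34), Gm2115 (1.33), Msx2 (1.26), Pard6b (1.23) and Gm8580 (1.22). Krt19 is a keratin gene of simple epithelia and Msx2 a homeobox gene. Among the 10 described genes the smaller difference was lowest for Ptgs2 (1.05), Nrn1 (1.10) and Il11 (1.17), just inside the threshold. Just outside it were Arhgef28 (0.997), Fbxo2 (0.993), Cd24a (0.992), Tfrc (0.980) and Hs3st3b1 (0.974). Values on either side of the line are nearly the same.

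Genes with the most similar profile were found by the root mean square distance between log2(FPKM + 1) values over the 4 tables, each gene centred on its own mean. The 4 points share their tables and scaling, so a short distance describes these tables only. Among the 3 nearest to Gjb2 were Nrn1, at a distance of 0.783, and Ldhb (0.821). The nearest to Inhba were 1500015A07Rik (0.240) and Has2 (0.266), and to Has2 Nipal1 (0.0874) and Wdfy1 (0.228). Il11 lay nearest to Krt19 (0.218) and Pcdh1 (0.239), and Pcdh1 to Krt19 (0.0687) and Asb5 (0.145). Ptgs2 lay nearest to Fbxo2 (0.0430) and Plin2 (0.0870), Nrn1 to Il11 (0.252) and Crmp1 (0.311), and Tspan2 to Gm8580 (0.158) and Syngr3 (0.204). Stmn2 lay nearest to Lancl3 (0.270) and Parm1 (0.311), and Parm1 to Kif5c (0.230) and Msx2 (0.263). Within the 10, Gjb2, Nrn1, Il11, Pcdh1, Parm1 and Ptgs2 had the larger difference in the numbered pair, and Inhba, Has2, Stmn2 and Tspan2 in the unnumbered pair.

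Lists of the families and pathways were then counted, each including its member or members among the 10. At least 2-fold lower in KO were 15.7% of measured genes for the numbered tables and 3.83% for the unnumbered tables, beside the 6.50% and 1.74% higher. Of 26 activin and TGF-beta signalling genes, 22 were measured in each pair, with 2 higher and 4 lower in the numbered pair (median difference 0.03) and 5 higher and 1 lower in the unnumbered pair (0.13). Inhba was the only gene of this list past 2-fold in the same direction in both pairs. The other subunit genes Inhbb (0.18 and 0.76) and Inha (-0.38 and -0.57) stayed within 2-fold, as did the activin antagonist gene Fst (0.14 and 0.71).

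Of 18 genes of IL-6 family signalling, 17 were in the tables. In the numbered pair 15 were measured, 2 higher and 2 lower (median difference -0.07), and in the unnumbered pair 14 were measured, 1 higher and 2 lower (-0.20). Il11ra1, the receptor subunit that binds interleukin 11, was at least 2-fold lower in KO in both pairs. It had 13.8 FPKM in KO numbered and 19.9 in KO unnumbered, against 39.6 in WT numbered and 53.4 in WT unnumbered. Ligand and receptor thus stood in opposite directions, with log2 differences of -1.46 and -1.38 for Il11ra1. Il6st, the signal-transducing subunit shared by the family, differed by -0.19 and -0.28, and Il6 by -2.45 and -0.55. The feedback inhibitor gene Socs3 differed by -0.66 and -1.33.

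Of 21 genes of the prostaglandin pathway, 13 were measured in the numbered pair, with 4 higher and 3 lower (median difference -0.06). In the unnumbered pair 15 were measured, with 1 higher and 0 lower (-0.38), and that 1 was Ptgs2. The constitutive isoform gene Ptgs1 differed by -0.46 and -0.53. The prostacyclin synthase gene Ptgis had 37.5 FPKM in KO numbered and 9.39 in KO unnumbered, against 680 in WT numbered and 15.9 in WT unnumbered, with differences of -4.14 and -0.70. The thromboxane receptor gene Tbxa2r had the same difference of -4.14 for the numbered and -0.83 for the unnumbered tables. Ptges, a terminal synthase of prostaglandin E, differed by 2.39 for the numbered and -0.70 for the unnumbered tables. Ptgfr, a prostaglandin receptor gene, had the next largest difference of the unnumbered pair after Ptgs2, at -0.85. No gene of this list other than Ptgs2 was past 2-fold in the same direction in both pairs.

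Of 15 hyaluronan genes, 13 were in the tables. In the numbered pair 9 were measured, 3 higher and 0 lower (median difference 0.46), and in the unnumbered pair 8 were measured, 1 higher and 1 lower (0.30). Cd44, the main hyaluronan receptor gene, had 164 FPKM in KO numbered and 76.7 in KO unnumbered, against 75.5 in WT numbered and 50.9 in WT unnumbered, with differences of 1.11 and 0.58. Has1 differed by 1.55 in the numbered pair, and Tnfaip6, whose product binds hyaluronan, by -1.27 in the unnumbered pair. Ugdh, which makes a precursor sugar of hyaluronan, differed by 0.29 and 0.32.

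Of 23 connexin and pannexin genes, 8 were measured in each pair, with 2 higher and 2 lower in the numbered pair (median difference 0.17) and 5 higher and 0 lower in the unnumbered pair (1.09). That last median was 0.20 at a minimum of 5 FPKM and 0 without a filter. Gjb2 is among those higher in both pairs. Gja1, the main connexin gene of fibroblasts, had 34.1 FPKM in KO numbered and 107 in KO unnumbered, against 20.9 in WT numbered and 102 in WT unnumbered, with differences of 0.68 and 0.07. Gja5 differed by 1.45 in the unnumbered pair. Gja3 had opposite signs, -1.50 and 1.17.

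Of 27 tetraspanin genes, 19 were measured in the numbered pair, with 3 higher and 2 lower (median difference -0.04), and 20 in the unnumbered pair, with 1 higher and 2 lower (0.02). Tspan2 was the only tetraspanin gene past 2-fold in the same direction in both pairs, while Tspan17 differed by -2.88 and Tspan15 by 1.40 in the numbered pair and Tspan18 by -1.63 in the unnumbered pair. Of 11 non-clustered protocadherin genes, 4 were measured in the numbered pair, 2 of them higher (median difference 0.72), and 7 in the unnumbered pair, 1 higher (-0.27). Pcdh19 differed by 1.20 and 0.10, Pcdh18 by 0.23 and -0.75, and Pcdh1 alone of these genes was higher in both pairs. Of 6 stathmin and neuritin genes, 3 of 4 measured were higher for the numbered tables (median difference 1.93) and 2 of 3 for the unnumbered tables (1.10). Stmn2 and Nrn1, chosen for being higher, are among these in both pairs and weigh on both medians, so no rise of the list is read from them. The other measured genes were Stmn4, which differed by 2.57 in the numbered pair, and the ubiquitous Stmn1, by -0.73 and -0.65. Relative to the median of all measured genes, 0 of the 91 list values past 2-fold changed sign on TPM or after scaling without ribosomal protein genes, and 4 of them came under 2-fold.

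**Figure D3:**
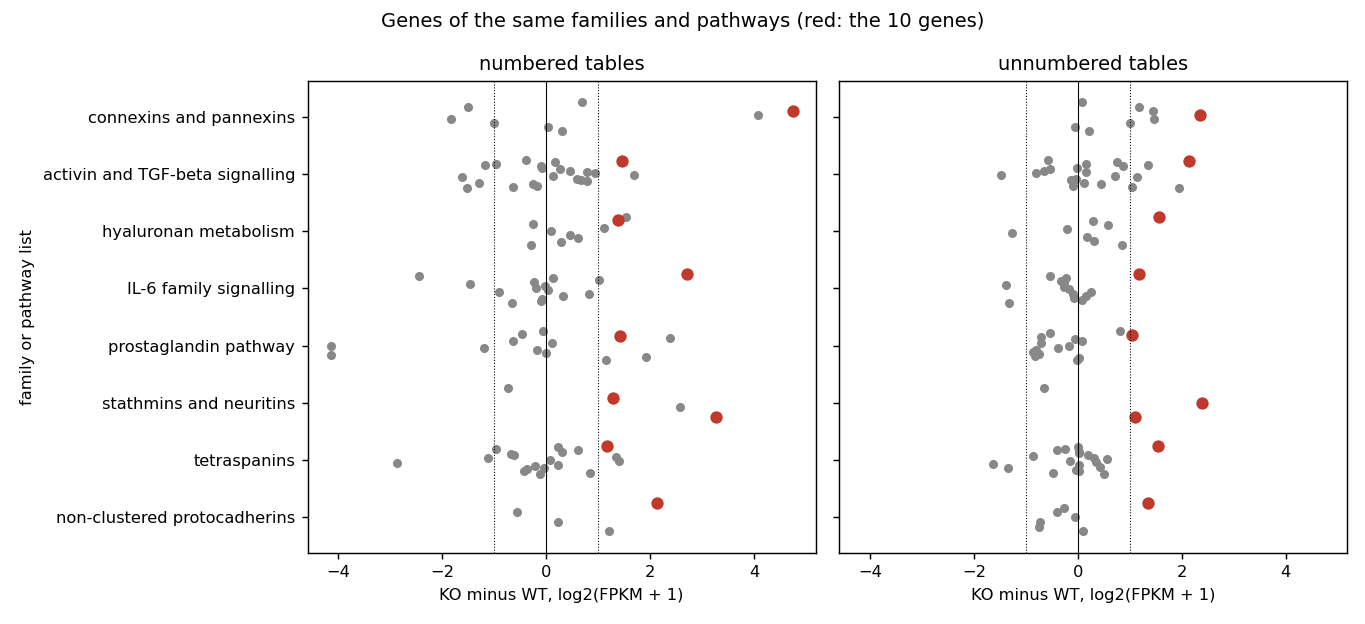
KO minus WT on log2(FPKM + 1) for the measured genes of 8 family and pathway lists, numbered tables at left and unnumbered tables at right on the same axis, with the 10 described genes in red and the others in grey. Dotted lines mark 2-fold; most grey points lie within them, and Ptgis and Tbxa2r at -4.14 in the numbered tables are the farthest to the left.

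Markers of other cell types differed between the genotypes as well. Their sums are of FPKM as deposited, and the numbered ones are not adjusted for the different totals of those tables. The 12 macrophage markers in the tables summed to 1.00 FPKM in KO and 1.27 in WT in the numbered tables, where 5 were at 0 in KO and 7 in WT. In the unnumbered tables they summed to 12.2 FPKM in KO and 188 in WT, with 2 at 0 in KO and 0 in WT, and 10 of 11 measured were at least 2-fold lower in KO. Tyrobp was at 0 FPKM in KO unnumbered and 18.1 in WT unnumbered, and C1qb at 0.236 in KO unnumbered and 15.2 in WT unnumbered. The 13 epithelial markers summed to 10.4 FPKM in KO and 1.76 in WT in the numbered tables and to 8.65 in KO and 2.88 in WT in the unnumbered tables, of which Krt19 made up 9.53 and 4.81 in KO and 1.33 and 1.15 in WT. Of these 13 markers 3 were at 0 in KO numbered, 8 in KO unnumbered, 9 in WT numbered and 5 in WT unnumbered. Krt7 differed by 0.34 and 1.25. The 12 neuronal markers summed to 30.6 FPKM in KO and 26.99 in WT in the numbered tables and to 49.3 in KO and 32.6 in WT in the unnumbered tables. Most of this came from Tubb3 and Map2, except in KO numbered, where Tubb3 had 17.3 FPKM, Gap43 11.4 and Map2 1.49. Map2 differed by -0.91 and 1.42, and Gap43 by 3.43 and -0.28.

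Endothelial markers summed to 0.212 FPKM in KO and 1.57 in WT in the numbered tables and to 1.13 in KO and 2.77 in WT in the unnumbered tables, and the single measured gene was Kdr in the numbered pair and Emcn in the unnumbered pair. Muscle markers summed to 69.8 FPKM in KO and 204 in WT in the numbered tables and to 5.93 in KO and 26.8 in WT in the unnumbered tables. In the numbered pair 3 muscle markers were measured, 1 higher and 2 lower, and in the unnumbered pair 2 were measured, 0 higher and 2 lower. The troponin gene Tnnt2 was lower in KO in both pairs, with differences of -3.87 and -2.39. Des went the other way in the numbered pair, with 57.1 FPKM in KO and 2.70 in WT, and differed by 3.97 and -1.90. Of 13 fibroblast markers, 11 were measured in the numbered pair, with 1 higher and 4 lower in KO (median difference -0.83, or 0.38 on TPM, where the median of all measured genes is 1.15), and 13 in the unnumbered pair, with 0 higher and 6 lower (-0.80). Dcn and Lum, which encode small matrix proteoglycans, were lower in both pairs, with differences of -2.48 and -3.60 for Dcn and of -2.25 and -3.31 for Lum. The part of these marker differences in the RNA of the 10 genes was not tested.

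The genes next to the 10 were looked up in RefSeq, with 20 nearest protein-coding neighbours in all. In the numbered pair 9 were measured, 0 higher and 4 lower in KO, and in the unnumbered pair 10 were measured, 2 higher and 1 lower. Of all measured genes, 6.50% were higher and 15.7% lower in the numbered pair, and 1.74% and 3.83% in the unnumbered pair. Gjb2 lies between the connexin genes Gja3, 40.6 kb away, and Gjb6, 18.6 kb away and at or below 0.105 FPKM in each table. Tmem238, 1.9 kb beyond Il11, had 1.35 FPKM in KO numbered and 2.71 in KO unnumbered, against 53.7 in WT numbered and 2.19 in WT unnumbered, with differences of -4.54 and 0.22. Pla2g4a, which encodes the phospholipase that releases arachidonic acid, lies 138.7 kb from Ptgs2 and differed by -0.06 and 0.81. Hey1, 101.8 kb from Stmn2, differed by -0.77 and -1.02. No measured coding neighbour was at least 2-fold higher in both pairs, beside 0.253% of all genes measured in both. With a share so small and so few neighbours, nothing is read from this.

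The ChIP files were not used to choose the genes. For each library the covered share of the gene body by called regions was taken, a gene counted as covered at a share of at least 0.5, and cover counted as different at a change of at least 0.5. PML regions covered 0 of the 10 genes in KO and 0 in WT, beside 0.0282% of 10632 measured genes in KO and 0.555% in WT. No gene body of the 10 touched a WT PML region, beside 0.959% of all measured genes. PML cover was less in KO by at least 0.5 of the gene body for 0 of 10, beside 0.527%, and more for 0 of 10, beside 0%. The gap to the nearest WT PML region was 327 kb for Il11, the shortest, and 9195 kb for Has2, the longest. Its median was 2718 kb for the 10 genes and 1637 kb for all measured genes.

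**Figure D4:**
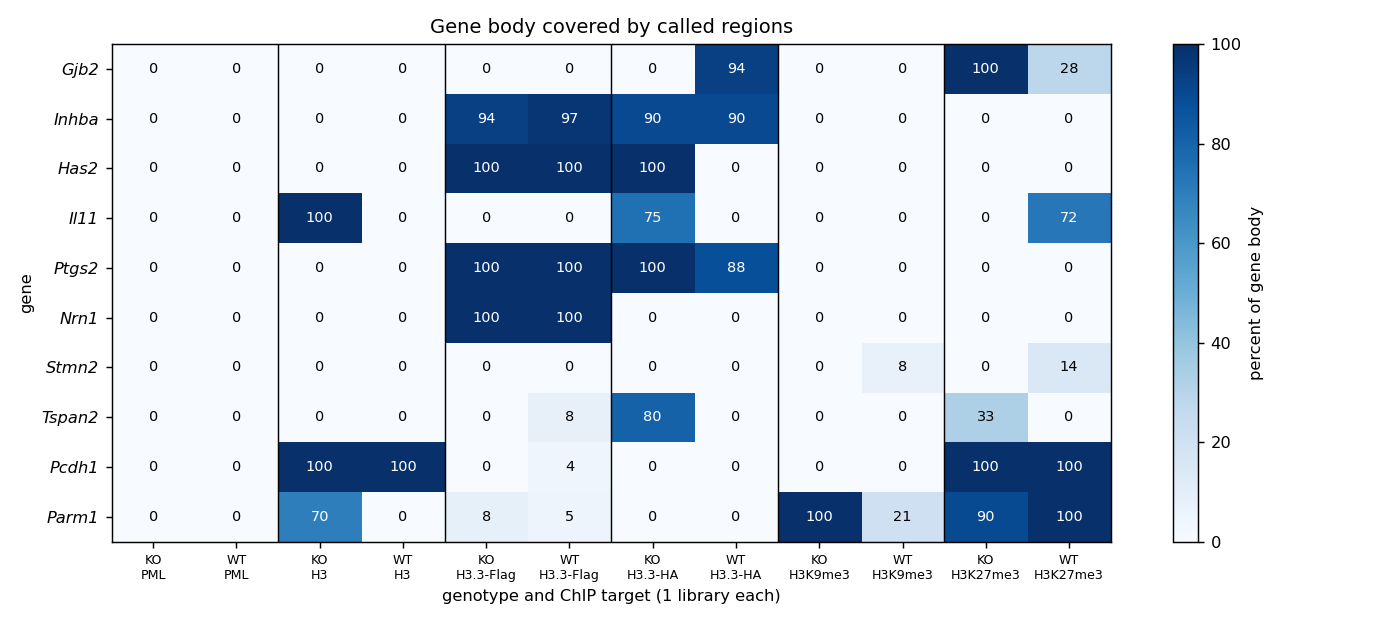
Percent of each gene body (rows) covered by called regions of each ChIP library (columns, KO left of WT for each target, 1 library each), with the rounded value in each cell. The PML columns are 0 throughout, Has2, Ptgs2 and Nrn1 are fully covered by H3.3-Flag in both genotypes, and Parm1 is fully covered by H3K9me3 in KO.

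H3.3-Flag covered the same 4 genes in both genotypes, Inhba, Has2, Ptgs2 and Nrn1, beside 39.3% of measured genes in KO and 37.2% in WT. Has2, Ptgs2 and Nrn1 were covered over 100% of their length in KO and in WT. Inhba was covered over 93.6% in KO and 97.3% in WT. The authors' signal value of these regions was 42.1 in KO and 100 in WT at Inhba, 26.9 in KO and 53.9 in WT at Has2, 15.6 in KO and 54.6 in WT at Ptgs2, and 17.6 in KO and 25.4 in WT at Nrn1. Each value stands within its own library's list, since the lists were not put on a common scale. Flag cover changed by at least 0.5 for 0 of the 10, beside 4.01% of measured genes with more in KO and 3.48% with less. All 4 covered genes had 47.4 FPKM or more in KO numbered, but Gjb2, with 60.8 FPKM there, had no Flag cover in KO or in WT. The other tables differed from this. Covered Nrn1 had 5.15 FPKM in WT numbered, 13.7 in KO unnumbered and 5.86 in WT unnumbered. Tspan2, not counted as covered, had more in each, at 6.21, 24.9 and 7.91. Parm1, Tspan2 and Pcdh1 were touched, over 8.47% in KO and 4.70% in WT for Parm1, over 0% in KO and 7.99% in WT for Tspan2, and over 0% in KO and 4.16% in WT for Pcdh1.

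H3.3-HA covered 5 of the 10 in KO and 3 in WT, beside 33.9% of measured genes in KO and 15.0% in WT. Cover was higher in KO by at least 0.5 for 3 of 10, beside 23.5% of measured genes, and lower for 1 of 10, beside 5.09%. Has2 had 100% in KO and 0% in WT, Tspan2 80.5% in KO and 0% in WT, and Il11 75.1% in KO and 0% in WT. Gjb2 went the other way, with 0% in KO and 93.5% in WT. The Gjb2 region in WT ran over 9 kb from 57099001 to 57108000 on chromosome 14 with a signal of 10.4, and held the promoter printed above. Inhba had 90.0% in both genotypes, and Ptgs2 100% in KO and 88.2% in WT. The KO regions of Tspan2 and Il11 had signals of 1.94 and 2.37 and did not pass a minimum signal of 3, whereas that of Has2, at 4.39, did. With the 200 Mb of highest signal in each library, the changes at Tspan2, Il11, Has2 and Gjb2 were all still called. The WT list is shorter than 200 Mb, so this cut trimmed the KO list alone and did not make the libraries equal. Gjb2, at 0% in KO, could not change under it. HA regions in total covered 389.8 Mb in KO and 73.5 Mb in WT, and the part of this in the differences at single genes was not tested. Flag cover of Has2 was complete in both genotypes, so the tags did not give the same comparison there.

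H3 regions covered 3 of the 10 in KO and 1 in WT, beside 39.3% of measured genes in KO and 21.7% in WT. Il11 had 100% in KO and 0% in WT, within a region of 740 kb, and Parm1 69.6% in KO and 0% in WT. Pcdh1 had 100% in both genotypes. More cover in KO for 2 of 10 stands beside 19.7% of measured genes, and less cover for 0 of 10 beside 2.12%. H3K9me3 covered 1 of the 10 in KO and 0 in WT, beside 13.6% of measured genes in KO and 4.95% in WT. That gene was Parm1, with 100% in KO and 20.7% in WT, in a KO region of 657 kb from 91293001 to 91950000. More cover in KO for 1 of 10 stands beside 9.21% of measured genes, and less for 0 of 10 beside 1.19%. On chromosome 5, where Parm1 lies, KO H3K9me3 regions covered 77.8% of 676 measured genes, against 9.26% of 9956 on other chromosomes, and WT regions 8.28% on chromosome 5 and 4.72% elsewhere. KO H3 regions likewise covered 81.2% of the chromosome 5 genes and 36.5% elsewhere, and WT H3 regions 47.2% and 20.0%. The H3K9me3 and H3 differences at Parm1 thus stand on a chromosome where most measured genes are called in these KO libraries.

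H3K27me3 covered 3 of the 10 in each genotype, beside 7.38% of measured genes in KO and 8.94% in WT. Pcdh1 had 100% in KO and in WT, and Parm1 89.7% in KO and 100% in WT. Both had higher RNA in KO while lying under called H3K27me3 regions in KO, of 263 kb with a signal of 20.1 at Pcdh1 and of 364 kb with a signal of 22.0 at Parm1. Gjb2 had 100% in KO and 27.9% in WT, and Il11 had 0% in KO and 72.4% in WT. More cover in KO for 1 of 10 stands beside 1.11% of measured genes, and less for 1 of 10 beside 2.31%, so 1 gene decides each count. At Gjb2 the KO region ran over 194 kb from 56989001 to 57183000 (signal 9.43), and the WT region that touched the gene ran from 57103001 to 57190000 (signal 11.4). Both held the Gjb2 promoter, so the difference lay in the rest of the gene body and not at the start. At Il11 the WT region ran over 30 kb from 4750001 to 4780000 (signal 20.7) and held the inner promoter printed above. The nearest KO region ended just short of the gene, at -0.372 kb from the lower end of the gene body. That gap is shorter than the 1 kb bins of the calls.

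At the annotated starts, the printed Il11 promoter was covered over its 250 bases by H3 and HA regions in KO and by H3K27me3 in WT. The Inhba promoter was covered by Flag and HA regions in both genotypes. The Ptgs2 promoter was covered by Flag in both genotypes and by HA in KO. Both Tspan2 promoters were covered by HA and H3K27me3 regions in KO and by none in WT, and Tspan2 had 32.6% of its gene body under H3K27me3 in KO and 0% in WT, with a signal of 1.73. The Parm1 promoter was covered by H3K9me3 in KO and by H3K27me3 in both genotypes. Stmn2 had no covered base in any KO library, and 7.68% under H3K9me3 and 14.4% under H3K27me3 in WT. The H3K9me3 part came from 1 region of 4 kb from 8535001 to 8539000, and the H3K27me3 part from 2 regions, 1 of them with the same bounds.

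**Figure D5:**
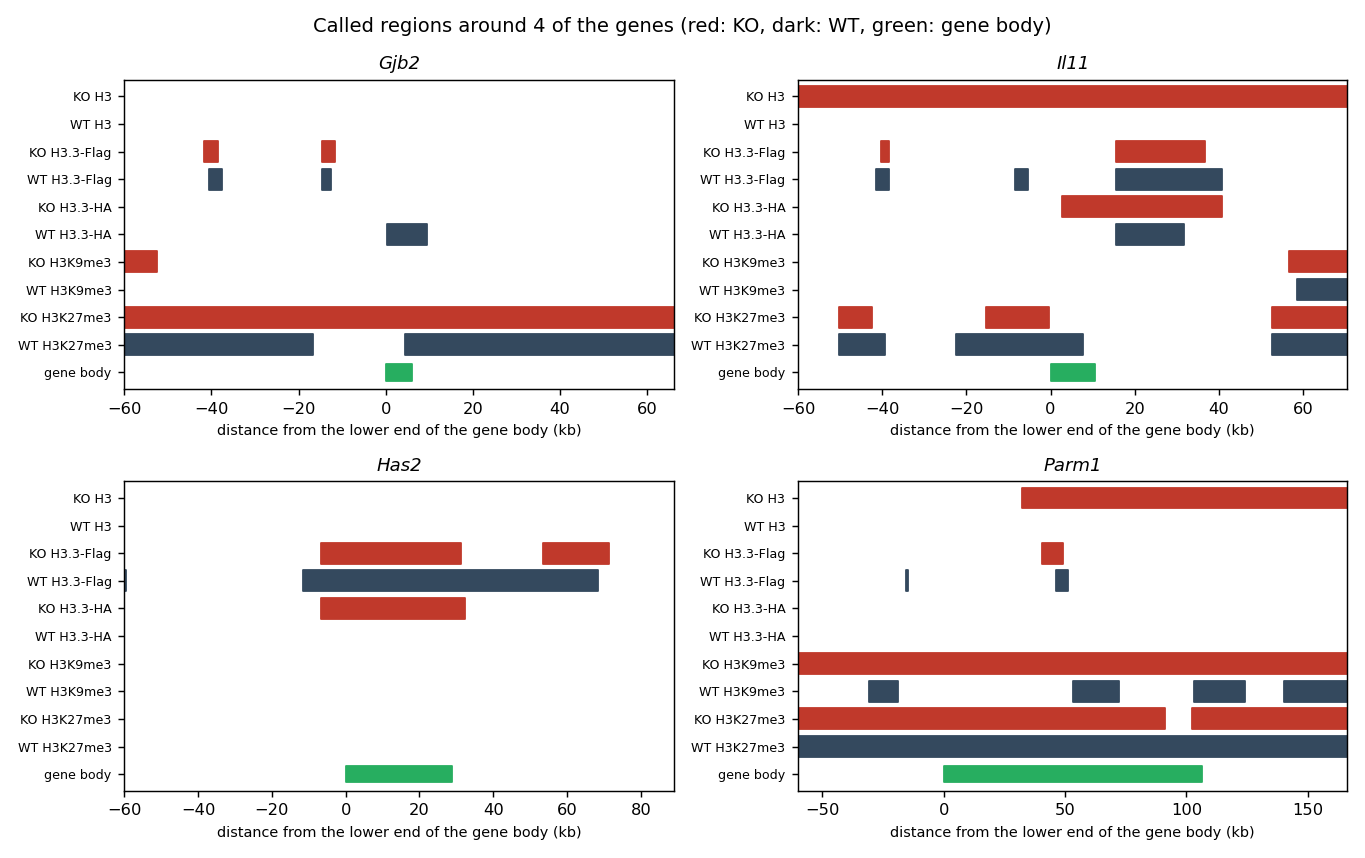
Called regions around Gjb2, Il11, Has2 and Parm1, with position as distance in kb from the lower end of the gene body, KO (red) above WT (dark blue) for each target and the gene body in green. H3K27me3 spans all of Gjb2 in KO and stops inside it in WT, spans part of Il11 in WT alone, and is not called at Has2; H3K9me3 spans Parm1 in KO.

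Across the 6 targets, 9 of 60 gene and target combinations changed by at least 0.5 of the gene body, in 5 of the 10 genes. Of all measured genes, 23.5% had more and 5.09% less cover in KO for H3.3-HA, and 19.7% and 2.12% for H3. These shares were 9.21% and 1.19% for H3K9me3, 4.01% and 3.48% for H3.3-Flag, 1.11% and 2.31% for H3K27me3, and 0% and 0.527% for PML. Nothing is read from the 9 of 60 or the 5 of the 10, since the combined shares over all measured genes were not computed. Inhba, Ptgs2, Nrn1, Stmn2 and Pcdh1 changed for none of the targets. No target changed in the same direction for more than 3 of the 10 genes. Over gene bodies and calls of any signal, H3K27me3 cover was higher in KO at Gjb2, lower at Il11 and full in both genotypes at Pcdh1. The Gjb2 and Il11 changes depended on these settings. Neither was called with the 200 Mb of highest signal in each library or in the window of 5 kb either side of the start. For Il11 that window lay around the outer start, with 21.4% of it covered in WT and 0% in KO. The inner Il11 promoter printed above was covered over 100% of its 250 bases in WT and 0% in KO. The change at Il11 was not called with 5 kb added to the gene body, and that at Gjb2 was not called when any called base counted.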

How the data were processed

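RNA and ChIP were measured in KO and WT fibroblasts, and the 10 genes and all gene lists were chosen with earlier results of these data known. The RNA tables deposited by the authors hold FPKM per gene. The ChIP files deposited by the authors are lists of called mm10 regions, in 1 kb bins with a signal and a score per region for H3.3, H3K9me3 and H3K27me3. Those for H3 and PML hold a single score. The H3 regions at the 10 genes and the PML regions nearest them have bounds at multiples of 10 kb, a step longer than the gene bodies of Gjb2, Ptgs2 and Nrn1. The submitters' processing notes name TopHat2 2.0.8b, Bowtie 1.0.0, Cuffdiff 2.2.1 and Cufflinks 2.2.1; the region caller is not given in the sources used here. Depth is unknown from these files, and no interval or detection limit is given. The tables held 0 columns of single replicates.

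RNA was compared as log2(FPKM + 1) of KO minus that of WT, a pseudocount of 1, over genes of at least 1 FPKM in either genotype of a pair. Names occurring more than once in a table were dropped, as were its lines for several genes (267 in numbered and 271 in unnumbered tables). Of 22593 genes, 99.5% matched RefSeq GRCm38.p6 by symbol, and gene bodies and 6 of the 10 genes' promoters come from it. Motifs were searched in the 250 bases before each start, not in the 300 bases first planned, which include transcribed bases. Counts and medians were computed with pandas 2.3.3 and numpy 2.4.6 in Python 3.11.15, plots with matplotlib 3.10.9, and the steps were tested on simulated data. Named were the 10 genes, the 10 next past the rule, the 5 just below it, the nearest profiles per gene, list genes past 2-fold in both pairs and the most different of each list and pair. A few genes that these rules name are not reported here but stay in the counts. Other list genes, the coding neighbours, the other genes of the whole-table checks and the motifs were chosen after values had been seen. Alternatives were other pseudocounts, filters, scalings, signal minimums and windows.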

Additional observations from a re-analysis of the deposited data

Results flagged for a closer look

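Some list genes whose difference was past 2-fold in opposite directions in the numbered and the unnumbered pair are given here. The difference between pairs was not tested, since each pair has 1 table per genotype. Values are KO minus WT on log2(FPKM + 1), the numbered pair before the unnumbered pair. In activin and TGF-beta signalling these were Tgfb2 (-1.18 and 1.355), Tgfbr3 (1.70 and -1.48) and Fstl3 (-1.62 and 1.14). The connexin gene Gja3, next to Gjb2, had -1.50 and 1.17. The fibroblast marker Pdgfra had 1.87 and -2.85, and the muscle marker Des had 3.97 and -1.90.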

How the results depend on the processing

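All 116 member differences computed under 6 alternatives (pseudocount, filters and scalings) remained at least 2-fold higher in KO. The genes were chosen past 2-fold, and filters leave a difference as it is while a smaller pseudocount enlarges it. TPM and scaling without ribosomal protein genes raised KO relative to WT. Only centring on the median gene could lower a difference, so little is read from this count. Relative to the median of all measured genes, Stmn2 in the numbered pair was 0.998 higher on TPM and 0.835 higher without ribosomal protein genes. The count of the 10 genes past 2-fold in both pairs was 6 at a minimum of 5 FPKM, because Il11, Stmn2, Pcdh1 and Parm1 then fail that filter in 1 pair. Counts of all genes depended more on the settings. Genes higher in both pairs, 27 as given, were 70 with a pseudocount of 0.1, 8 with a minimum of 5 FPKM, 97 on TPM and 48 when scaled without ribosomal protein genes. For the numbered pair, 719 as given, the same settings gave 1086, 409, 6362 and 3640, and for the unnumbered pair, 203 as given, a pseudocount of 0.1 gave 347. Among list medians past 2-fold as given, those that changed sign were endothelial (0.000973 without a filter) and muscle markers (0.003615 without a filter and 0.04845 at a minimum of 5 FPKM) in the numbered pair, and muscle markers (0.0553) and stathmins and neuritins (-0.02046) without a filter in the unnumbered pair; the cause was not tested. Medians past 2-fold that came under it without changing sign were those of connexins (0.20 at a minimum of 5 FPKM and 0 without a filter) and epithelial markers (0 without a filter) in the unnumbered pair, and of epithelial markers (0.02 without a filter), stathmins and neuritins (0.83 without a filter) and endothelial markers (-0.93 when scaled without ribosomal protein genes) in the numbered pair. Medians under 2-fold also changed sign in the numbered pair. On TPM these were fibroblast markers (0.38), neuronal markers (0.76), IL-6 signalling (1.003), the prostaglandin pathway (1.14) and tetraspanins (1.16), where the median of all measured genes is 1.15. Scaled without ribosomal protein genes they were neuronal markers (0.33), IL-6 signalling (0.57), the prostaglandin pathway (0.70) and tetraspanins (0.73), where that median is 0.72. Neuronal markers also gave 0.01 without a filter and 1.52 at a minimum of 5 FPKM, the prostaglandin pathway 0.003135 without a filter, and activin and TGF-beta signalling -0.03 when centred on the median gene. The count of the 10 genes with changed H3 cover, 2 as given, was 1 in the window of 5 kb either side of the start, which exists for 6 of the 10. For H3.3-Flag, 0 as given, it was 2 when any called base counted. For H3.3-HA, 4 as given, it was 2 at a signal of at least 3, without Il11 and Tspan2. For H3K27me3, 2 as given, it was 1 with the 200 Mb of highest signal (Parm1, 89.7% in KO and 0% in WT), 1 with 5 kb added to the gene body (Gjb2, 100% in KO and 41.6% in WT) and 1 at the start (Tspan2, 100% in KO and 0% in WT). No paired analysis was possible because the numbered replicates were pooled into 1 table per genotype, and for the same reason no replicate could be left out. Depth is unknown, so values near 0 FPKM carry no limit of detection.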
